A study of Homo sapiens with 4 samples.

Results

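The genes described here make, break down and regulate the polyamines. They are 10 named genes (ODC1, AMD1, SRM, SMS, SAT1, SMOX, PAOX, OAZ1, OAZ2 and AZIN1), found by Ensembl identifier among the 64252 genes of the count table. All 10 passed the filter on low counts and were among the 17971 genes tested. Cells of a human leukemia line labelled NB4, described as AML cells, were cultured for 24 h with 8 μM dBET1 (2 libraries) or with the same volume of DMSO, its solvent (2 libraries). dBET1 is a PROTAC, a molecule that tethers the BET bromodomain proteins to CRBN, the substrate receptor of an E3 ubiquitin ligase, so that they are degraded. The comparison asks how the transcriptome of these cells differed after the compound. All libraries come from 1 established line, and no label says whether the replicates were separate cultures, so the p-values measure only the spread between these libraries, which may be technical.

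The libraries held 28019956 to 34685645 counts. NB4 is known as a promyelocytic line, but the markers did not follow that label. All 5 genes of the primary granules of promyelocytes (ELANE, CTSG, MPO, PRTN3 and AZU1) together had 17 and 15 counts in the control libraries and 55 and 25 after dBET1, with ELANE and CTSG at 0 in each library. The 7 erythroid genes (EPOR, KLF1, GATA1, HBZ, HBE1, HBG2 and HBG1) together had 155809 and 163130 counts in the controls and 94215 and 94786 after dBET1. Their part in the results below was not tested, and the cells are called here as they are labelled.

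The polyamines putrescine, spermidine and spermine are small cations that bind RNA and DNA and that growing cells need. ODC1 makes putrescine from ornithine, and AMD1 makes the aminopropyl donor from which SRM builds spermidine and SMS builds spermine. SAT1 acetylates spermidine and spermine, PAOX oxidizes the acetylated forms and SMOX oxidizes spermine directly, while the antizymes OAZ1 and OAZ2 carry ODC to the proteasome and AZIN1 binds the antizymes and releases ODC. ODC1 is a textbook target of MYC, which binds the E-box CACGTG.

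The RefSeq promoter windows (250 bases before and 50 after an annotated start, GRCh38.p14) were searched for CACGTG, which reads the same on both strands. Windows of 7 of the 10 genes were searched, 10 windows in all, and none of SMOX, PAOX or AZIN1. Some windows of AMD1 overlap. The motif occurred at 3 places, 1 in the window of SRM and 2 in the second window of ODC1, and all 3 are shown. Of all 35116 windows, 7.26% held the motif, and of all 27305 genes with a window, 8.77% had it in at least 1. A longer stretch of SRM is shown beside a stretch of the same length before the start of SAT1, the member that rose most. Capitals mark CACGTG, and each sequence is written 5′ to 3′ on the strand of its gene.
SRM, 120 bases that begin 250 bases before the start, chr1:11060149-11060268, reverse strand: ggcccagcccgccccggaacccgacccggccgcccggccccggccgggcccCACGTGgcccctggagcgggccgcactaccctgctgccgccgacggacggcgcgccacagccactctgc
ODC1, first site, chr2:10448024-10448053, reverse strand: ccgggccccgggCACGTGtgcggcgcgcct
ODC1, second site, chr2:10447990-10448019, reverse strand: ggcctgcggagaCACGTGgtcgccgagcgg
SAT1, the 120 bases before the start, chrX:23783053-23783172, forward strand: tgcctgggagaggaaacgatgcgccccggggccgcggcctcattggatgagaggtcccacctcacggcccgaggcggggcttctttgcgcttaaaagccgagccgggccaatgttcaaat
The SRM motif began 199 bases before the start. The motifs of ODC1 began 29 bases before and 5 bases after a downstream start that lies inside the gene. The first ODC1 site was exonic in 0 of 3 GENCODE transcripts that span it, and the second in 2 of 5; neither lies in an exon of the MANE Select transcript of ODC1. The windows of AMD1, SMS, SAT1, OAZ1 and OAZ2 held no CACGTG, and the cyclic AMP response element TGACGTCA, found in 1.85% of all windows, was in none of the 10. A match in these letters is a description and not evidence that a factor binds there.

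All 4 synthesis genes fell after dBET1, whereas SAT1 and OAZ2 rose and the other 4 genes did not pass the test. A gene passed at a Benjamini-Hochberg adjusted p under 0.05, from the quasi-likelihood test of edgeR over all 17971 genes. SE below stands for the fit's standard error on the log2 scale, and SD for the standard deviation over the libraries of a group. Of the 10 polyamine genes 6 passed, 4 lower and 2 higher, where 55.6% of all tested genes did (27.6% lower and 28.0% higher). Higher genes made up 50.4% of all calls, a share that came to 65.2% with total counts and to 62.1% with upper-quartile factors. With total counts 4 members were higher. Fits without 1 library leave a single library in a group, and only their log2 fold changes are given below. With the further limit of an absolute log2 fold change above 1, 3 of the 10 were lower (ODC1, SRM and SMS) and 1 was higher (SAT1), where 8.54% and 16.9% of all tested genes were. The median log2 fold change of the 10 genes was -0.16, and that of all tested genes was 0.048. Since the members moved in opposite directions, this median describes none of the groups well. Each level below is in CPM, the counts of a gene per 1000000 counts of its library, with library sizes scaled by TMM factors.

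ODC1, ornithine decarboxylase (ENSG00000115758, chromosome 2 of hg38, 10439968 to 10448327, reverse strand), stood at 894 and 903 CPM in the DMSO libraries and at 279 and 256 CPM in the dBET1 libraries. The groups lay far apart, and the mean fell from 899 ± 5.98 to 268 ± 16.4 CPM (SD, n = 2). The log2 fold change was -1.75 (SE 0.0746, edgeR adjusted p = 7.28e-06), a fall of 70.2%.

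SRM, spermidine synthase (ENSG00000116649, chromosome 1, 11054584 to 11060020, reverse strand), stood at 404 and 450 CPM with DMSO and at 119 and 119 CPM with dBET1. Both dBET1 libraries were almost equal, and both were far below the lower DMSO library. Its log2 fold change of -1.84 (SE 0.0809, edgeR adjusted p = 7.28e-06) was the lowest of the 10 genes. It was a fall of 72.1%, and SRM ranked 271 from the lowest among the 17971 genes, while ODC1 ranked 325.

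SMS, spermine synthase (ENSG00000102172, chromosome X, 21940709 to 21994837, forward strand), stood at 239 and 248 CPM in the controls and dropped to 95.4 and 93.2 CPM after dBET1. The gap between the groups again exceeded the spread within each of them. The log2 fold change was -1.37 (SE 0.0732, edgeR adjusted p = 1.26e-05), a fall of 61.2%.

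AMD1, adenosylmethionine decarboxylase (ENSG00000123505, chromosome 6, 110874770 to 110898879, forward strand), stood at 218 and 201 CPM in the controls against 107 and 113 CPM after dBET1. It fell least of the synthesis genes, and did not reach the limit on the fold change. Its log2 fold change was -0.93 (SE 0.0803, edgeR adjusted p = 6.73e-05), a fall of 47.4%. Without DMSO replicate 2 it was -1.02, past that limit. Summed over the 4 synthesis genes, the level was 1755 and 1801 CPM with DMSO and 601 and 581 CPM with dBET1. In these bulk libraries, fewer cells of a type and less RNA per cell cannot be told apart.

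**Figure D1:**
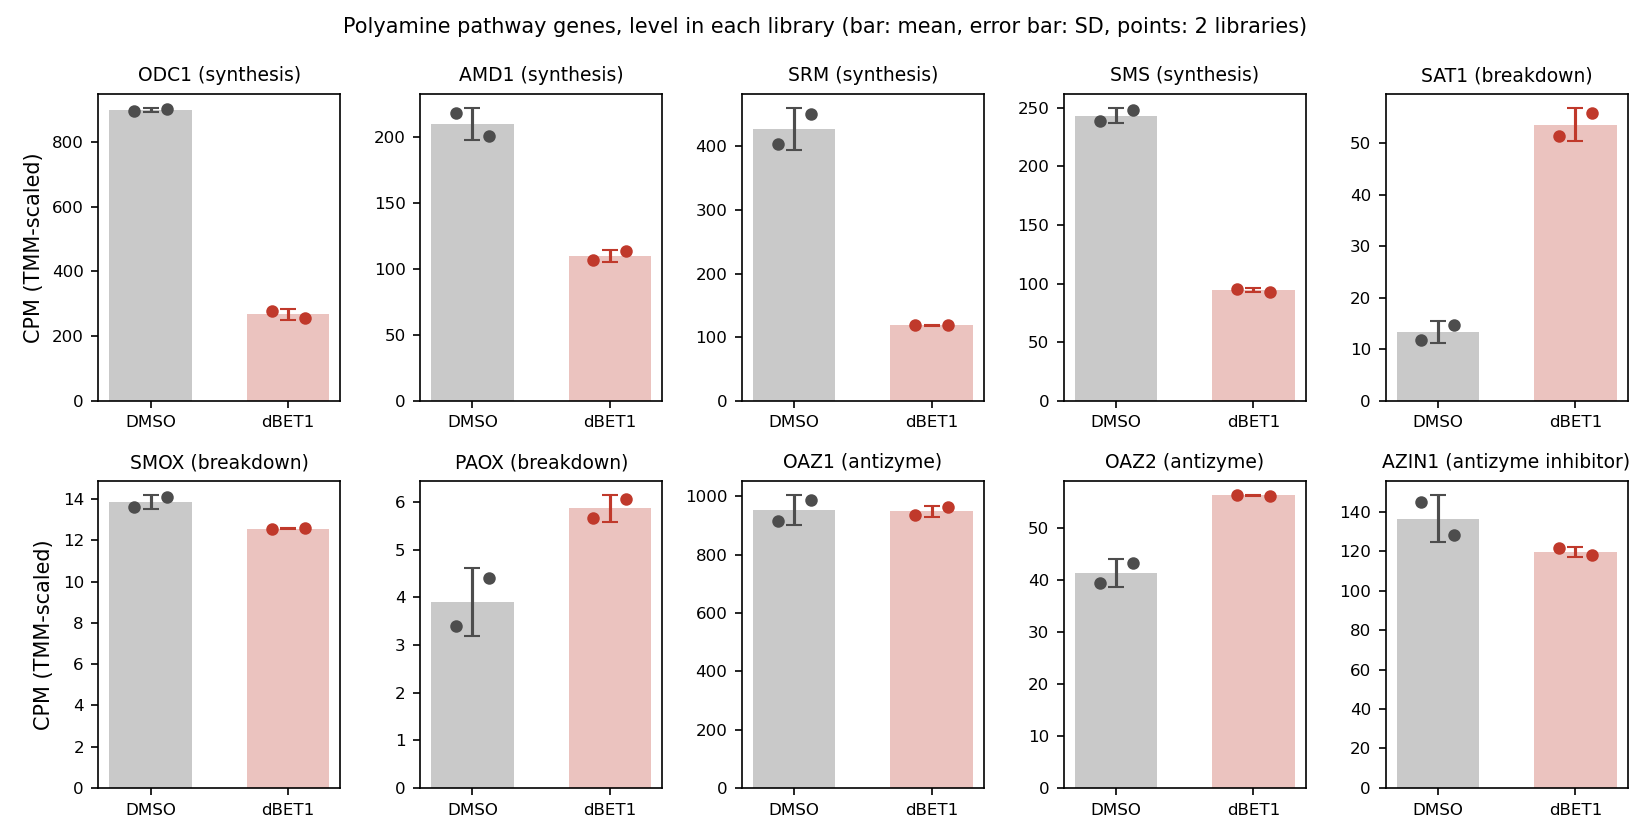
Level of each polyamine pathway gene in CPM (vertical axes, each from 0), by condition. Points are the 2 libraries of a group, bars their mean and error bars the SD. ODC1, AMD1, SRM and SMS were lower in both dBET1 libraries, SAT1 rose from 13.3 to 53.5 CPM, and the OAZ1 libraries of both groups overlapped.

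Among the breakdown genes, SAT1 rose and SMOX and PAOX did not pass the test. SAT1 (ENSG00000130066, chromosome X, 23783173 to 23786210, forward strand) was counted 384 and 416 times in the controls but 1539 and 1704 times after dBET1, or 11.8 and 14.8 CPM against 51.3 and 55.8 CPM. The groups did not overlap, and the mean went from 13.3 ± 2.15 to 53.5 ± 3.21 CPM (SD, n = 2). The log2 fold change was 2.01 (SE 0.134, edgeR adjusted p = 2.37e-05), a level 4.04 times that with DMSO. Ranked from the highest log2 fold change, SAT1 was at place 1436 of the 17971 genes.

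SMOX, spermine oxidase (ENSG00000088826), stood at 13.6 and 14.1 CPM with DMSO and at 12.6 and 12.6 CPM with dBET1. Its log2 fold change was -0.14 (SE 0.140, edgeR adjusted p = 0.425), with the sign turned to 0.071 by total counts and to 0.026 by upper-quartile factors. Although its groups did not overlap, neither did those of 79.3% of all tested genes.

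PAOX, the peroxisomal oxidase of acetylated polyamines (ENSG00000148832), had the lowest level of the 10 genes, with 111 and 124 counts in the controls against 170 and 185 after dBET1. These were 3.40 and 4.41 CPM against 5.66 and 6.06 CPM. The log2 fold change of 0.59 (SE 0.228, edgeR adjusted p = 0.0583) missed the threshold. It passed with total counts, at 0.80 (edgeR adjusted p = 0.0166), and with upper-quartile factors, at 0.75 (edgeR adjusted p = 0.0242). It also passed with a minimum of 10 counts and with counts divided by 2. It missed the threshold with DESeq2 (DESeq2 adjusted p = 0.200) and with no filter (edgeR adjusted p = 0.143). With 1 library left out its log2 fold change was 0.38 to 0.75. PAOX shares 1373 exonic bases with another gene on its strand, ENSG00000254536, whose count was at most 11.8% of that of PAOX in any library.

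Of the antizymes, OAZ2 rose and OAZ1 did not pass the test. OAZ1 (ENSG00000104904), the more abundant, stood at 916 and 989 CPM with DMSO and at 935 and 963 CPM with dBET1. The dBET1 libraries lay between the DMSO libraries, and the log2 fold change was -0.0055 (SE 0.0708, edgeR adjusted p = 0.954). With total counts only, however, OAZ1 was higher, with a log2 fold change of 0.21 (edgeR adjusted p = 0.0288), under a scaling that moved the median of all genes up by 0.21. JSRP1, on the opposite strand, shares 236 exonic bases with OAZ1 and had at most 1.41% of its counts.

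OAZ2 (ENSG00000180304, chromosome 15, 64687573 to 64703281, reverse strand) had 39.5 and 43.3 CPM in the control libraries and 56.4 and 56.3 CPM after dBET1. It rose in both dBET1 libraries, by a log2 fold change of 0.45 (SE 0.0919, edgeR adjusted p = 0.00445), which is a rise of 36.2%. With 1 library left out the log2 fold change was 0.35 to 0.48. Over the alternatives that kept all libraries, the adjusted p was 0.000645 (edgeR, total counts) to 0.0270 (edgeR, no filter).

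AZIN1, the antizyme inhibitor (ENSG00000155096), stood at 145 and 128 CPM with DMSO and at 122 and 118 CPM with dBET1. Its log2 fold change of -0.19 (standard error 0.0857) did not pass the test, with an adjusted p of 0.0945 from edgeR's quasi-likelihood test. Without DMSO replicate 2 it was -0.31, and with total counts its sign turned, at 0.020. The counts measure messages only. They show neither the frameshift by which antizyme protein is made nor the stability of ODC protein.

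**Figure D2:**
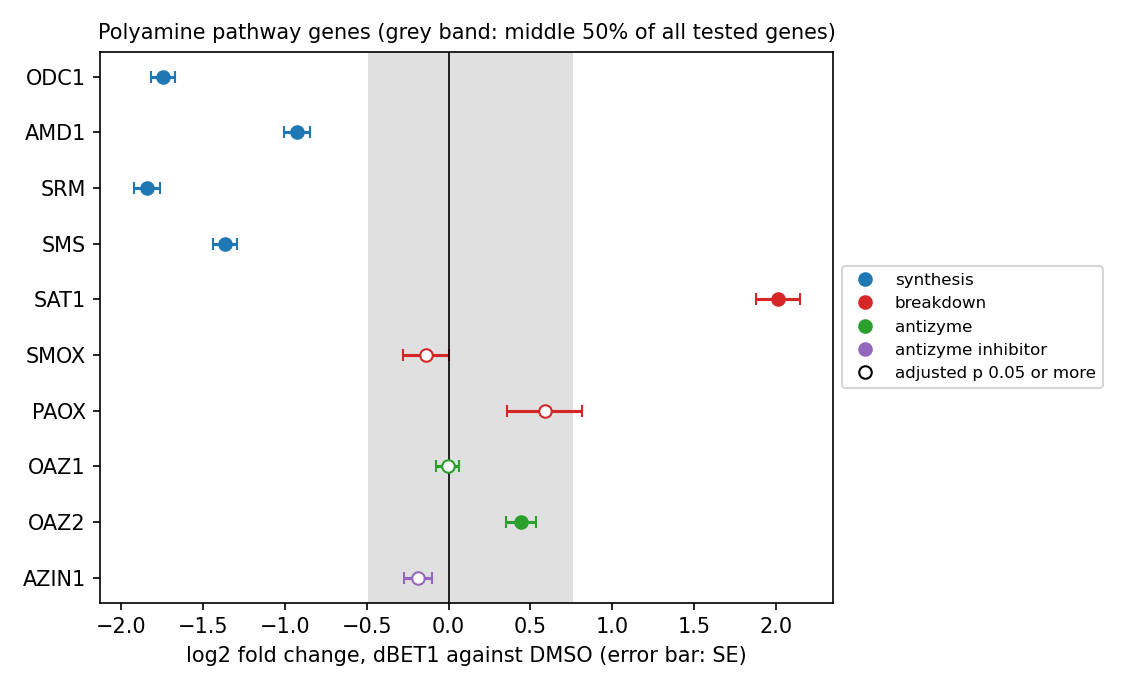
Log2 fold change of each polyamine pathway gene, dBET1 against DMSO (horizontal axis), with its standard error. Filled points passed at an adjusted p under 0.05, colors mark the role, and the grey band holds the middle 50% of all tested genes, from -0.49 to 0.75. The 4 synthesis genes lie left of the band, from -1.84 to -0.93, and SAT1 lies right of it at 2.01.

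Because the reads of a library are divided among all its genes, the counts of pairs of genes were also compared within each library. There the scaling of libraries cancels. The ratio of SAT1 to ODC1 was 0.0132 and 0.0164 in the controls but 0.184 and 0.218 after dBET1. It was thus 13.6-fold higher after dBET1, a log2 change of 3.77 where replicates differed with an SD of 0.201. With 2 libraries in each group no exact test can reach 0.05, so the ratios are given as a description.

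The last steps of synthesis were compared in the same way. The ratio of SMS to SRM was 0.591 and 0.550 with DMSO and 0.799 and 0.786 with dBET1, a log2 change of 0.48 with a replicate SD of 0.0535. The ratio of OAZ2 to OAZ1 also shifted without overlap, from 0.0431 and 0.0438 to 0.0603 and 0.0585. The ratio of PAOX to SMOX went from 0.250 and 0.313 to 0.451 and 0.482. In contrast, the ratio of AZIN1 to OAZ1 was 0.158 and 0.130 with DMSO and 0.130 and 0.123 with dBET1, a log2 change of -0.18 that is close to the replicate SD of 0.151. It was -0.33 without DMSO replicate 2 and -0.038 without DMSO replicate 1.

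**Figure D3:**
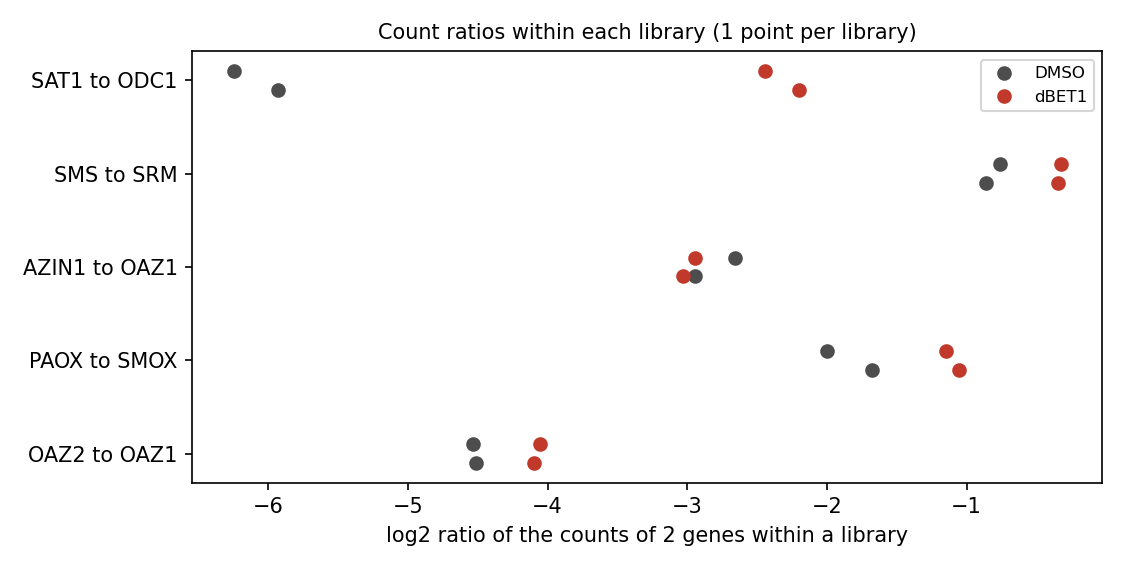
Log2 ratio of the counts of 2 genes within a library (horizontal axis), with 1 point per library. The dBET1 libraries lie right of the DMSO libraries for every pair but AZIN1 to OAZ1, and the shift is largest for SAT1 to ODC1, at 3.77.

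The order of the genes by level changed as well. Levels of different genes were compared as CPM per kb of annotated exon, taken over all annotated transcripts of a gene whether or not they were used in these cells. With DMSO, OAZ1 (277 ± 15.1 CPM per kb, SD, n = 2) and ODC1 (272 ± 1.81 CPM per kb, SD, n = 2) led and their libraries overlapped, followed by SRM at 225 and SMS at 114 CPM per kb. AZIN1 at 22.3 and AMD1 at 20.5 CPM per kb overlapped each other. OAZ2 at 5.40 CPM per kb overlapped SAT1 at 5.35, and SAT1 overlapped SMOX at 4.70, with PAOX lowest at 1.74 CPM per kb.

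With dBET1, OAZ1 led at 276 ± 5.79 CPM per kb (SD, n = 2). ODC1 followed at 81.0 ± 4.96, SRM at 62.8 and SMS at 44.3 CPM per kb. SAT1 came next, at 21.6 ± 1.29 CPM per kb (SD, n = 2), above AZIN1 at 19.6 and AMD1 at 10.8. OAZ2 at 7.35, SMOX at 4.27 and PAOX at 2.61 CPM per kb were the lowest, and no neighbours in this order overlapped. Among 56105 annotated genes, ODC1 went from rank 137 to rank 373 by this level, and SAT1 from rank 6555 to rank 1867.

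Genes that supply, use or move polyamines were followed in a wider list of 36 genes. Of these, 24 were tested, 13 were lower and 6 were higher, and 5 did not pass, where 27.6% of all tested genes were lower and 28.0% higher. The higher genes include SLC22A2, which passed the filter on low counts only through its dBET1 libraries. The median log2 fold change of the 24 was -0.44. The other 12 genes had at most 16 counts in any library, and 5 of them (MTAP, SLC7A2, SLC22A16, SATL1 and AOC1) had 0 counts in all 4 libraries.

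The hypusine genes, through which spermidine is used to modify the translation factor eIF5A, had 5 tested members, of which 4 were lower and none was higher (27.6% and 28.0% of all tested genes). EIF5A, the factor itself, stood at 967 and 1180 CPM in the controls and at 353 and 335 CPM after dBET1. It fell, with a log2 fold change of -1.64 (SE 0.102, edgeR adjusted p = 1.89e-05). DHPS, which transfers the aminobutyl group of spermidine, fell from 69.5 to 49.0 CPM, a log2 fold change of -0.50 (edgeR adjusted p = 0.00237). DOHH, which completes hypusine, fell from 84.0 to 31.2 CPM, a log2 fold change of -1.43 (edgeR adjusted p = 0.000121). EIF5AL1, at -1.72 and 1 of the 4 lower genes, is a copy of EIF5A and can share its reads. Its value is thus uncertain, and the counts of this group and of the wider list may hold the fall of EIF5A more than once. EIF5A2 did not pass, at -0.039.

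Of the 5 tested genes of precursor supply, 4 were lower and none was higher, against 27.6% and 28.0% of all tested genes. OAT, which links ornithine with glutamate semialdehyde, fell from 317 ± 11.7 to 148 ± 4.02 CPM (SD, n = 2), a log2 fold change of -1.10 (edgeR adjusted p = 2.32e-05). It was the only gene of this group past both thresholds, although with total counts its log2 fold change was -0.89. MAT2A and MAT2B, which make S-adenosylmethionine, fell by log2 fold changes of -0.67 and -0.54, and ARG2, a mitochondrial arginase, by -0.56. ARG2 did not pass with total counts (edgeR adjusted p = 0.0795) or with upper-quartile factors (edgeR adjusted p = 0.0535).

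The salvage of methylthioadenosine, the by-product of SRM and SMS, had 4 tested genes, of which 3 were lower and none was higher, beside the same 27.6% and 28.0% of all tested genes. ENOPH1 fell from 57.0 ± 0.123 to 24.9 ± 1.29 CPM (SD, n = 2), a log2 fold change of -1.20 (edgeR adjusted p = 4.49e-05), and -0.99 with total counts. APIP had a log2 fold change of -0.86. ADI1, at -0.37, did not pass with total counts (edgeR adjusted p = 0.129) or with upper-quartile factors (edgeR adjusted p = 0.0639). MRI1 did not pass, at -0.10, and was at -0.24 without DMSO replicate 1.

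SAT2 and HDAC10, the 2 tested genes grouped as other breakdown, were higher, where 28.0% of all tested genes were. That heading is loose, since HDAC10 removes an acetyl group where SAT1 adds one. The transport genes were split. SAT2, a relative of SAT1, rose from 1.90 and 1.67 CPM in the controls to 6.13 and 5.86 CPM after dBET1, a log2 fold change of 1.74 (edgeR adjusted p = 0.000594). HDAC10, the deacetylase of acetylspermidine, rose by 0.53, but did not pass with no filter (0.47, edgeR adjusted p = 0.186). Its log2 fold change was 0.29 without DMSO replicate 1 and 0.31 without dBET1 replicate 2. Of the 6 tested transport genes, 3 were higher and 2 were lower, where 28.0% and 27.6% of all tested genes were. The 3 include SLC22A2, which passed the filter on low counts only through its dBET1 libraries and so could only come out higher. SLC18B1, a vesicular polyamine carrier, fell from 18.4 to 6.98 CPM, a log2 fold change of -1.40 (edgeR adjusted p = 0.000233), and SLC7A1, an arginine carrier, fell by a log2 fold change of -0.82. SLC22A2, an organic cation carrier, was at 0 counts in both controls and at 12 and 10 after dBET1. Set against a floor of 3 counts per control library, that is 3.66-fold higher, without the counting error of the dBET1 libraries.

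ATP13A2, the lysosomal polyamine exporter, rose by a log2 fold change of 0.47, and SLC3A2, an amino acid carrier subunit linked to polyamine export, by 0.27. With 1 library left out they ran from 0.37 to 0.51 and from 0.19 to 0.30. SLC3A2 missed the threshold with no filter (edgeR adjusted p = 0.0752). ATP13A3, at 0.030, did not pass, and a single library set its direction, with 0.20 without DMSO replicate 1 and -0.17 without DMSO replicate 2. In the antizyme family, OAZ3 rose from 18 and 21 counts to 89 and 71 counts, a log2 fold change of 2.03 (edgeR adjusted p = 0.00174). AZIN2, with 5 to 21 counts per library, did not pass at 1.36, except with total counts (1.57, edgeR adjusted p = 0.0455).

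**Figure D4:**
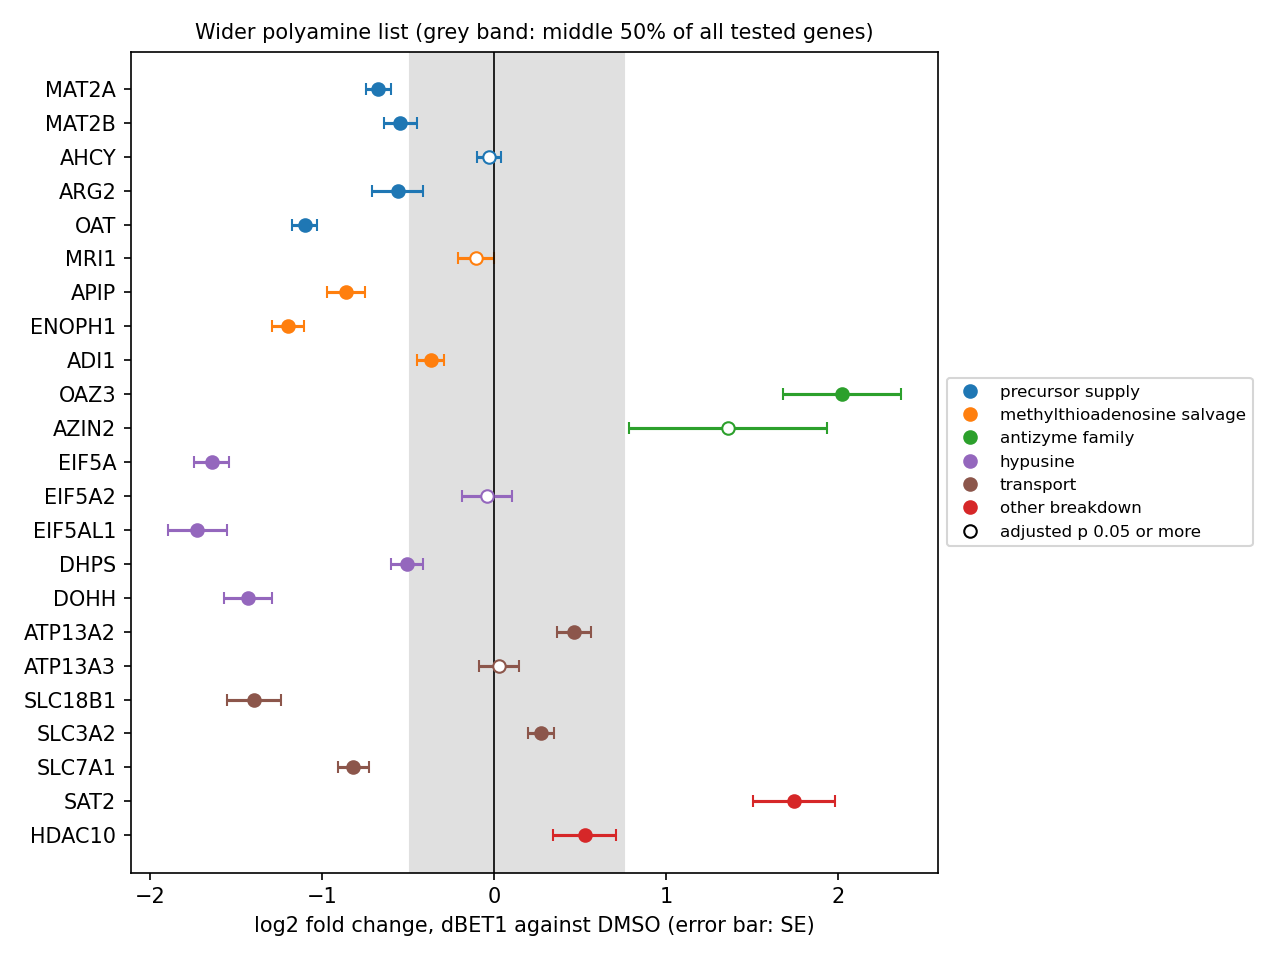
Log2 fold change of 23 tested genes of the wider polyamine list, dBET1 against DMSO (horizontal axis), with the standard error. Filled points passed at an adjusted p under 0.05, colors mark the group, and the grey band holds the middle 50% of all tested genes. SLC22A2 is left out since it had 0 counts with DMSO, and the hypusine, precursor and salvage genes that passed lie left of 0.

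The genes most like the extremes were found as the 3 protein-coding genes, of 12508 compared, with the smallest Euclidean distance over the 4 libraries after log2(CPM + 0.5) of each gene was centred on its mean. For SRM they were PRELID1 (distance 0.021), PYCR1 (0.044), an enzyme of proline synthesis, and HNRNPD (0.070), an RNA-binding protein. Their log2 fold changes were -1.82, -1.81 and -1.78. For SAT1 they were APLF (0.043), MUC20 (0.076) and BCL3 (0.090), with log2 fold changes of 3.37, 4.63 and 2.21, which are the fitted values and exceed the differences on that scale, these genes having stood at only 0.237, 0.0712 and 1.61 CPM with DMSO.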

How the data were processed

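Paired-end reads, cleaned by the sequencing provider, were mapped by the authors to hg38 using HISAT2 2.2.0, followed by StringTie for assembly and abundance. The deposited values are whole-number counts per Ensembl gene, not normalized. The step from abundances to counts and its strand setting are not given in the sources used here, so overlapping genes can share counts. Columns were matched to samples by group, time and replicate number; 0 columns were unused and 0 rows named no gene. Symbols came from GENCODE 44 (56105 of 64252 identifiers).

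Counts were fitted with edgeR 4.0.16 in R 4.3.3 (filterByExpr, TMM, quasi-likelihood test, group alone, Benjamini-Hochberg). The standard error is the log2 fold change over the square root of F. In simulated counts for dBET1 against DMSO, 200 genes above 5 CPM were changed 2-fold, as many up as down, with a common dispersion. Of these, 94.5% were recovered among 17388 genes tested, with 5 false calls. With so few changed genes, it cannot show errors of scaling in data where 55.6% of genes passed. Replicates differed by more than sampling noise (chi-square per degree of freedom 23.6 between the DMSO libraries and 8.14 between the dBET1 libraries). Alternatives were DESeq2 1.42.0, other scalings, other filters, a replicate block, leaving out each library, counts divided by 2 and a threshold of 0.01. A fit without 1 library takes its spread from the other group alone, so only its log2 fold changes are given.

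The genes, lists and tests were chosen with earlier results of these data known. All 10 members are named. From the wider list, genes past both thresholds, EIF5A, DHPS and DOHH are named by rule; other genes of that list were named after their values were seen. A gene of the wider list and an erythroid marker are not reported here and were left out of the counts and sums of those lists.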

Additional observations from a re-analysis of the deposited data

How the results depend on the processing

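ODC1, AMD1, SRM and SMS stayed lower and SAT1 and OAZ2 higher under all 12 alternatives that refit the data. ODC1 ranged from -1.82 to -1.54, SRM from -1.95 to -1.63, SMS from -1.42 to -1.16, AMD1 from -1.02 to -0.72 and SAT1 from 1.83 to 2.22.

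With total counts only, 4 of the 10 genes were higher in place of 2 (PAOX and OAZ1 in addition). Leaving out 1 library gave 1 to 3 higher members, 4 to 5 lower members, and 2 to 6 higher genes of the wider list, the fewest without dBET1 replicate 2. The median of the 10 genes was 0.045 with total counts, 0.0018 with upper-quartile factors, -0.094 with at least 10 counts in every library, and -0.23 to -0.16 with 1 library left out. These scalings moved the median of all genes by 0.21 (total counts) and 0.17 (upper-quartile), and higher genes made up 65.2% and 62.1% of the calls, against 50.4%.

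The sign turned only for genes that had not passed. With total counts these were SMOX (0.071), OAZ1 (0.21), AZIN1 (0.020), AHCY (0.18), MRI1 (0.11) and EIF5A2 (0.17), and with upper-quartile factors SMOX (0.026), OAZ1 (0.16), AHCY (0.14), MRI1 (0.060) and EIF5A2 (0.13). With at least 10 counts they were OAZ1 (0.065), AHCY (0.041) and EIF5A2 (0.032), and with counts divided by 2 OAZ1 (0.026) and AHCY (0.0033). ATP13A3 turned with DESeq2 (-0.0054), its size factors (-0.0055) and no filter (-0.025). With 1 library left out, OAZ1 ran from -0.087 to 0.020, EIF5A2 from -0.23 to 0.12 and ATP13A3 from -0.17 to 0.20. SLC22A2 and AZIN2 could be fitted in 8 and 10 of the alternatives. The cause was not tested.

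With the replicate number as a block, 4 members were lower and 2 higher, as without it, and 13 and 6 genes of the wider list. Replicates with the same number did not deviate together (correlation -0.0011 over 11186 genes above 5 CPM). Whether they shared a culture or a batch is not given by the labels, and this correlation cannot decide it. SDs rest on 2 libraries in each group.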

Other observations

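MTAP (chromosome 9 of hg38, 21802636 to 21937651), the enzyme that opens the salvage of the methylthioadenosine left by SRM and SMS, had 0 counts in all 4 libraries. A count of 0 allows a level of up to 0.0919 to 0.107 CPM per library (3 counts, counting error only), while the next genes of that salvage route, MRI1, APIP, ENOPH1 and ADI1, were at 57.7, 35.0, 57.0 and 105 CPM with DMSO. Of the 22 protein-coding genes within 1 Mb of MTAP, 21 also had 0 counts in all libraries, where 20.3% of the 19550 protein-coding genes in the table did. Of these 22, 16 are interferon genes. The others at 0 were HACD4, KLHL9, CDKN2A, CDKN2B and DMRTA1, and FOCAD, the exception, had 22 to 35 counts. These neighbours were chosen after their values were seen, and the cause was not tested.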
